A study of Homo sapiens with 20 samples.

Results

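The NF-kB inhibitor genes described here are NFKBIA, NFKBIB, NFKBIE and NFKBIZ of the IkB family, TNFAIP3, which encodes A20, and TNIP1 and TNIP2, which encode the A20-binding proteins ABIN-1 and ABIN-2. They were chosen by name as negative feedback genes of NF-kB. The rule uses no measured value, but the choice was made with earlier results of these data known, so the counts of called genes below are descriptions. The inhibitor genes make up 7 of the 58676 genes in the deposited count table. All 7 passed the filter on low counts that left 12111 genes for testing. RNA was sequenced from immortalized human pericytes, a single wild-type line (CL 05008-CLTH, Celther) of the mural cells that surround small vessels, so the results describe that line. The cells were kept for 4 hours with recombinant human eNAMPT at 500 ng/mL and PDGF-BB at 20 ng/mL together, with the same dose of eNAMPT alone, with the same dose of PDGF-BB alone, or without either as control, all in the same serum-containing medium. Each of the 4 groups had 5 libraries labelled as biological replicates. Extracellular NAMPT (eNAMPT) is a cytokine-like protein released by cells, which inside cells works in NAD synthesis. PDGF-BB is a dimeric growth factor and the classical ligand of PDGFRB on pericytes. The labels do not say which libraries came from separate cultures, so p-values measure the spread between these libraries, which may be partly technical.

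In resting cells the classical IkB proteins hold NF-kB dimers in the cytoplasm. A stimulus activates the IKK complex, which phosphorylates IkB and marks it for destruction, and NF-kB then enters the nucleus. There it switches on inflammatory genes together with several of its own inhibitors, such as the gene of IkB-alpha, which is a textbook negative feedback loop. A20 edits and binds ubiquitin chains upstream of IKK, and the ABIN proteins assist it. IkB-zeta is an atypical member of the family: it acts in the nucleus, where it can assist the expression of some inflammatory genes as well as restrain others.

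Gene counts were 2894878 to 4011066 per library. Levels are given in CPM, the counts per 1e6 of the library total after that total is multiplied by its TMM factor. CPM values are not divided by gene length, and they are therefore compared between groups within a gene and not between genes. Of 10 pericyte and mural cell markers, 9 averaged over 1 CPM, with PDGFRB highest at 130 CPM and DES lowest at 0.561 CPM. Their summed level ranged over 363 to 444 CPM with both factors, 321 to 390 with eNAMPT, 359 to 409 with PDGF-BB and 341 to 401 in control. Fibroblast markers were not examined, so these levels alone do not identify the cell type. Of other cell types, 2 of 7 leukocyte markers (CD14 at 17.7 CPM and CSF1R at 2.88 CPM), 3 of 7 endothelial markers (TIE1 at 3.59 CPM, TEK at 2.52 CPM and PECAM1 at 1.73 CPM) and none of 5 epithelial markers averaged over 1 CPM, while the leukocyte marker PTPRC averaged 0.0729 CPM, LYZ had 0 counts and the endothelial marker CDH5 averaged 0.0977 CPM. Summed leukocyte marker levels were 14.3 to 26.0 CPM with both factors, 18.8 to 24.7 with eNAMPT, 18.4 to 28.5 with PDGF-BB and 18.7 to 24.6 in control. In such bulk samples a change in the share of expressing cells and a change in RNA per cell cannot be told apart.

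Sequences near the start sites are shown first because several of these genes are known targets of NF-kB itself. RefSeq promoter sequences (GRCh38.p14, 250 bases before to 50 after each start site) were at hand for 6 of the 7 genes, all but NFKBIE. They were searched on both strands for the kappa-B consensus, the binding motif of NF-kB dimers, which was found in 2075 of 35116 promoters, or 5.91%. Each stretch below reads 5′ to 3′ on the gene's strand, and capitals mark a match on either strand.
NFKBIA, chr14:35404796-35404855, minus strand: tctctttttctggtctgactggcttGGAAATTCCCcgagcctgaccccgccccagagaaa
TNFAIP3, chr6:137867167-137867238, plus strand: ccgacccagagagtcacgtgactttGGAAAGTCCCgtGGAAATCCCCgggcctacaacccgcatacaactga
NFKBIZ, first start site, chr3:101827742-101827801, plus strand: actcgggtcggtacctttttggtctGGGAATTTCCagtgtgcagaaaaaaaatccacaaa
NFKBIZ, second start site, chr3:101849264-101849309, plus strand: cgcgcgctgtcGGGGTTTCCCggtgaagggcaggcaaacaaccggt
TNIP1, second start site, chr5:151081042-151081101, minus strand: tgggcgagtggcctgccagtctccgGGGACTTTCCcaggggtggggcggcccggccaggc
NFKBIB, second start site, chr19:38899916-38899976, plus strand: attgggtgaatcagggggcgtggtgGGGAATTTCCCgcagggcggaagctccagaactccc

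The NFKBIA match starts 81 bases upstream of the start site, and TNFAIP3 holds 2 matches, 67 and 55 bases upstream. NFKBIZ has a match 223 bases upstream of the first start site and another, which reads as a match on both strands, 239 bases upstream of the second. The TNIP1 match lies 42 bases upstream of the second start site, and NFKBIB has 2 overlapping matches that start 28 and 27 bases upstream of the second. In these windows the consensus was not found at the other start sites of NFKBIB and TNIP1 or in TNIP2. Start sites are those of RefSeq, and the matches of TNFAIP3, TNIP1, NFKBIB and the second NFKBIZ site lie within the full extent of these genes in GENCODE 29, while those of NFKBIA and the first NFKBIZ site lie outside it. These are matches of letters only, and binding was not measured in this study.

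**Figure D1:**
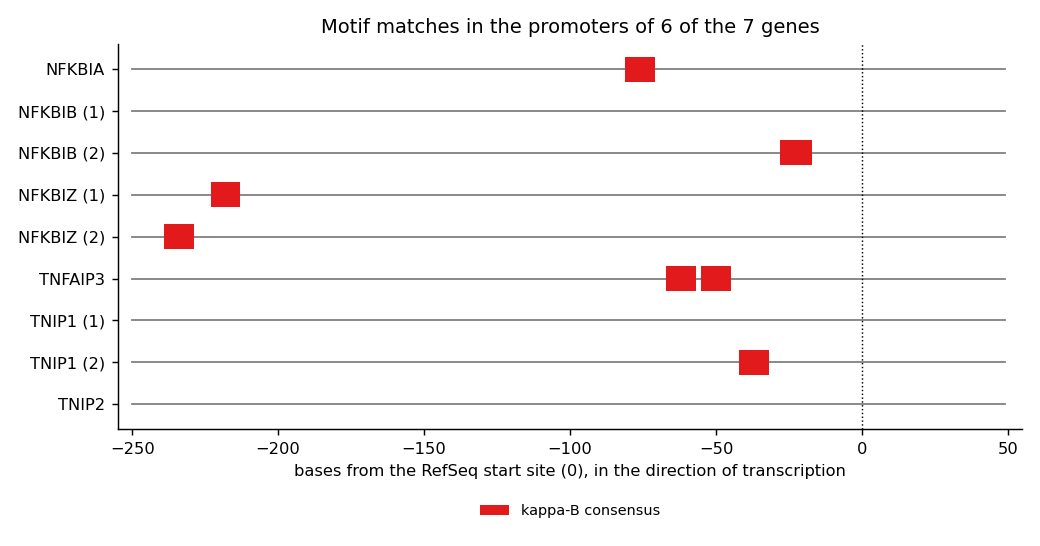
Kappa-B consensus matches in the RefSeq promoters of 6 inhibitor genes, 1 row for each start site, plotted by distance in bases from the start site (250 before to 50 after). NFKBIA carries a single match, TNFAIP3 2 neighbouring matches, and TNIP2 none.

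NFKBIA encodes IkB-alpha, the inhibitor best known for rapid resynthesis after NF-kB activation (ENSG00000100906, GRCh38 with GENCODE 29 positions, chr14:35401511-35404749, minus strand). Its level was 260, 256, 239, 244 and 225 CPM in the 5 libraries with both factors, 271, 260, 253, 270 and 279 CPM with eNAMPT, 153, 139, 125, 135 and 132 CPM with PDGF-BB, and 140, 140, 136, 114 and 132 CPM in control. All 10 libraries with eNAMPT, whether or not PDGF-BB was also given, lay above all 10 without it, with 225 CPM as the lowest value with eNAMPT and 153 CPM as the highest without. The group means were 245 ± 14.3 CPM with both, 266 ± 10.1 with eNAMPT, 137 ± 10.4 with PDGF-BB and 132 ± 10.6 in control (SD, n = 5 each).

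NFKBIA had the smallest p of all 12111 genes for eNAMPT against control, where the fold was 2.01 (95% interval of the log2 fold change 0.86 to 1.16, adjusted p 1.55e-12, edgeR quasi-likelihood test with Benjamini-Hochberg adjustment), and also for eNAMPT on top of PDGF-BB, where the fold was 1.79 (log2 interval 0.69 to 0.99, adjusted p 5.85e-10). The average of these 2 effects was 0.92 on the log2 scale (SE 0.05, adjusted p 1.53e-16), again the smallest p of all genes. PDGF-BB against control gave a log2 fold change of 0.05, with an interval of -0.11 to 0.21 and an adjusted p of 0.912. Adding PDGF-BB to eNAMPT gave -0.12 (interval -0.27 to 0.03, adjusted p 0.586), and all 5 combined libraries lay below the mean of the eNAMPT libraries. Set directly against PDGF-BB, eNAMPT gave a difference of 0.96 (SE 0.08, adjusted p 3.46e-12). NFKBIA therefore rose with eNAMPT in both settings and was higher with eNAMPT than with PDGF-BB, while the intervals of the PDGF-BB comparisons ran from -0.27 to 0.21. Under scaling by spike-in RNA, which shifted the median over all genes to -0.15 on the log2 scale in cells with both factors against PDGF-BB, that comparison of NFKBIA kept its direction and lost its call (0.67, adjusted p 0.908).

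**Figure D2:**
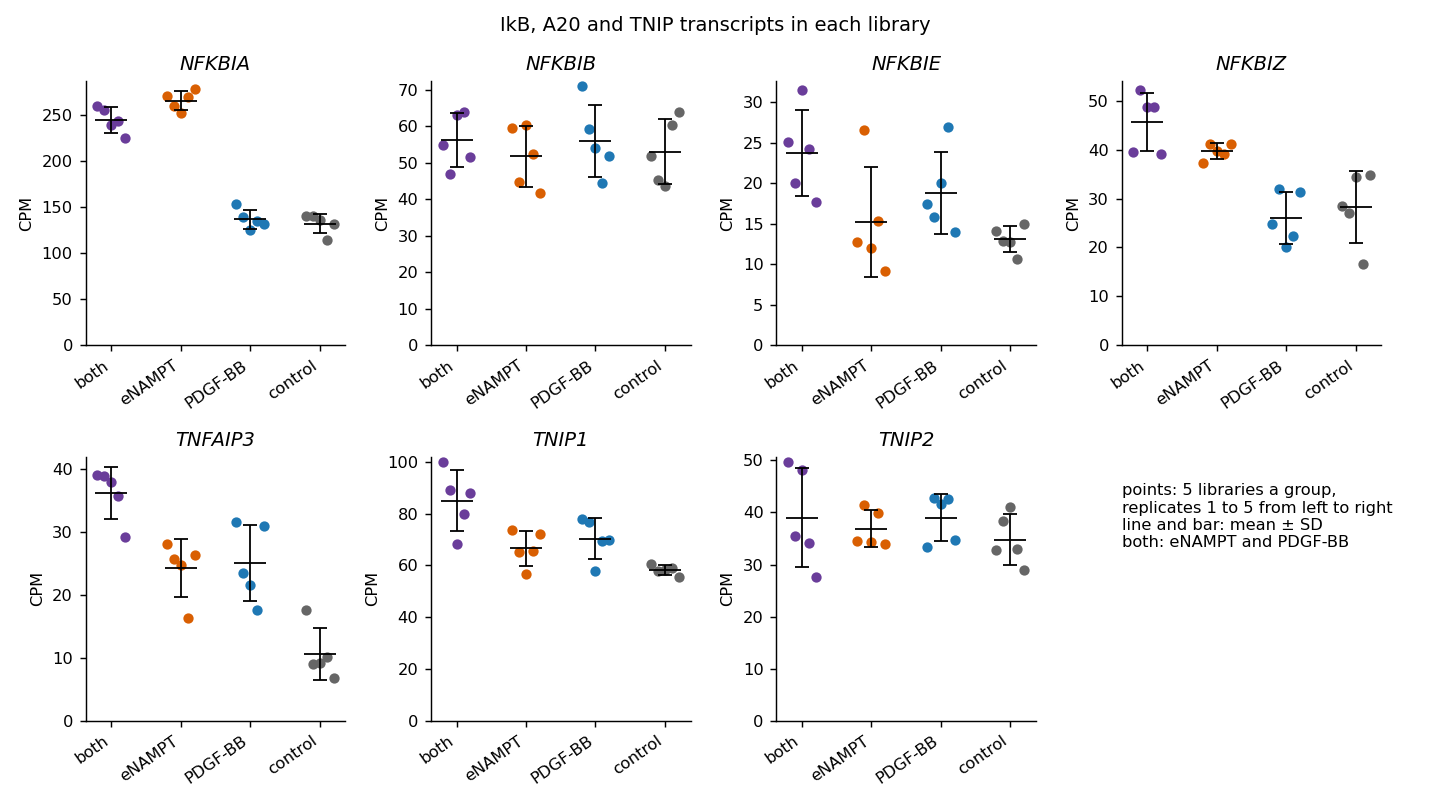
Level of each of the 7 inhibitor genes in every library, in CPM after TMM scaling, with a panel for each gene, the groups on the x axis and points for the 5 libraries of a group, with the group mean and SD. NFKBIA separates libraries with and without eNAMPT (225 to 279 against 114 to 153 CPM), while TNFAIP3 is lowest in control and highest with both factors.

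NFKBIE encodes IkB-epsilon, a classical inhibitor whose synthesis after stimulation is known to be slower than that of IkB-alpha (ENSG00000146232, chr6:44258166-44265788, minus strand). It measured 25.1, 20.0, 31.5, 24.3 and 17.7 CPM with both factors, 12.7, 26.6, 12.0, 15.3 and 9.14 CPM with eNAMPT, 17.4, 15.8, 20.0, 27 and 14 CPM with PDGF-BB, and 14.1, 12.9, 12.8, 10.7 and 15.0 CPM in control. The combined libraries all lay above the control libraries, and the other groups overlapped both. The eNAMPT group was the most scattered, with replicate 2 at 26.6 CPM and the other 4 at 9.14 to 15.3 CPM.

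With both factors against control NFKBIE rose by 0.86 on the log2 scale (SE 0.22, adjusted p 0.0213). Averaged over cells with and without eNAMPT, PDGF-BB raised it by 0.59 (SE 0.15, adjusted p 0.0176), whereas the average eNAMPT effect was 0.27 (interval -0.04 to 0.59, adjusted p 1). The direct difference of eNAMPT and PDGF-BB was -0.32 with an interval of -0.76 to 0.13, so these responses were not shown to differ. Both effects stayed positive in all 20 fits without 1 library (0.74 to 0.95 and 0.51 to 0.74). The combined call ended in 3 of these fits, without combined replicate 3 (0.74, adjusted p 0.114), control replicate 4 (0.79, 0.081) or combined replicate 4 (0.85, 0.0503). The average PDGF-BB call ended in 2, without combined replicate 3 (0.53, 0.0533) or PDGF-BB replicate 4 (0.51, 0.06). Spike-in scaling ended both as well (0.73, adjusted p 0.369, and 0.54, 0.202). Without eNAMPT replicate 2, NFKBIE was called higher with both factors than with eNAMPT (0.95, adjusted p 0.00775, against 0.65 and 0.146 with all libraries). Its value for eNAMPT against control then became -0.09, against 0.21 with all libraries. Both factors against eNAMPT also passed with all libraries and the replicate number as a block in the fit (0.66, adjusted p 0.0274).

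NFKBIB encodes IkB-beta, a classical inhibitor that is generally not resynthesized as quickly by NF-kB (ENSG00000104825, chr19:38899700-38908893, plus strand). It ranged over 46.9 to 63.9 CPM with both factors, 41.8 to 60.2 CPM with eNAMPT, 44.4 to 70.9 CPM with PDGF-BB and 43.7 to 63.8 CPM in control. All groups overlapped, and no comparison called it. The average effect of eNAMPT was -0.02 (log2, interval -0.20 to 0.17) and that of PDGF-BB 0.10 (interval -0.09 to 0.28), and neither interval reaches the 0.92 of NFKBIA. The first 163 bases of NFKBIB overlap SIRT2 on the opposite strand, and whether counting used strand is not given in the sources used here.

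NFKBIZ encodes IkB-zeta, the atypical nuclear member (ENSG00000144802, chr3:101827991-101861022, plus strand). It measured 39.5, 52.3, 48.8, 48.7 and 39.1 CPM with both factors, 37.3, 41.2, 39.8, 39.2 and 41.1 CPM with eNAMPT, 24.8, 31.9, 20.0, 22.4 and 31.3 CPM with PDGF-BB, and 28.5, 27.1, 34.5, 16.6 and 34.8 CPM in control. As for NFKBIA, every library with eNAMPT lay above every library without it, but the gap was narrow, with 37.3 CPM as the lowest value with eNAMPT and 34.8 CPM as the highest without. The means were 45.7 ± 6.00 CPM with both, 39.7 ± 1.62 with eNAMPT, 26.1 ± 5.34 with PDGF-BB and 28.3 ± 7.41 in control (SD, n = 5 each).

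On average over both settings eNAMPT raised NFKBIZ by 0.66 on the log2 scale (SE 0.11, adjusted p 0.000383). In cells that also received PDGF-BB the difference was 0.81 (SE 0.15, adjusted p 0.00759), and without PDGF-BB it was 0.50 (SE 0.15) and did not pass (adjusted p 0.918). The change of the eNAMPT effect with PDGF-BB, an interaction of 0.31 with an interval of -0.12 to 0.75, did not pass either, so the effects in the 2 settings were not shown to differ. The average PDGF-BB effect on NFKBIZ was 0.05, with an interval of -0.17 to 0.27. The combined treatment raised it by 0.70 over control (SE 0.15, adjusted p 0.00426). eNAMPT stood above PDGF-BB by 0.61 (SE 0.15, adjusted p 0.0359), a call that ended in 8 of 20 fits without 1 library: without any of the 5 eNAMPT libraries (adjusted p 0.0565 to 0.0738) or without PDGF-BB replicate 1 (0.0869), 3 (0.148) or 4 (0.111). The call on top of PDGF-BB ended without combined replicate 2 (0.76, adjusted p 0.0601), PDGF-BB replicate 3 (0.73, 0.076) or PDGF-BB replicate 4 (0.76, 0.0553). Under spike-in scaling the 4 NFKBIZ calls lost their adjusted p (0.0934 to 0.908) and kept their direction (0.60 to 0.67).

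TNFAIP3 encodes A20, the ubiquitin-editing enzyme that limits signalling to IKK from receptors for cytokines and microbial products (ENSG00000118503, chr6:137867188-137883312, plus strand). It measured 39.1, 39.0, 38.0, 35.7 and 29.2 CPM with both factors, 28.1, 25.7, 24.8, 16.3 and 26.4 CPM with eNAMPT, 31.6, 23.5, 21.6, 17.7 and 31 CPM with PDGF-BB, and 17.7, 9.04, 9.19, 10.1 and 6.82 CPM in control. Control was lowest, with 20 to 58 counts per library, and its highest library, at 17.7 CPM, reached into the range of the eNAMPT group and to the lowest PDGF-BB library. Replicate 1 was the highest library in each of the 4 groups. All combined libraries lay above all eNAMPT libraries and above all control libraries. The means were 36.2 ± 4.13 CPM with both, 24.3 ± 4.63 with eNAMPT, 25.1 ± 6.06 with PDGF-BB and 10.6 ± 4.18 in control (SD, n = 5 each).

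TNFAIP3 rose with each factor alone. The fold over control was 2.28 with eNAMPT (log2 interval 0.78 to 1.6, adjusted p 0.00117), 2.35 with PDGF-BB (0.82 to 1.64, adjusted p 0.000107) and 3.39 with both (1.36 to 2.16, adjusted p 2.08e-08). The 2 single treatments differed by -0.05 on the log2 scale, eNAMPT against PDGF-BB, with an interval of -0.42 to 0.32. Adding the other factor gave smaller differences that did not pass over all genes in the main fit. They were 0.53 for eNAMPT on top of PDGF-BB (SE 0.18, adjusted p 1) and 0.58 for PDGF-BB on top of eNAMPT (SE 0.18, adjusted p 0.101). The difference for PDGF-BB on top of eNAMPT passed with the replicate number as a block in the fit (0.60, adjusted p 0.00971). The interaction was -0.66 with an interval of -1.20 to -0.11, which did not pass (adjusted p 0.999). Averaged over the 2 settings, eNAMPT raised TNFAIP3 by 0.86 (SE 0.14, adjusted p 0.000172) and PDGF-BB by 0.90 (SE 0.14, adjusted p 7.18e-06). An antisense gene, AL357060.1, overlaps 1046 bases at its start and had 0 to 8 counts per library, and its reads cannot be told apart from those of TNFAIP3 there if counting ignored strand.

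TNIP1 encodes ABIN-1, a ubiquitin-binding partner of A20 (ENSG00000145901, chr5:151029945-151093577, minus strand). It measured 99.8, 89.1, 68.3, 80 and 88.1 CPM with both factors, 73.7, 65.3, 56.7, 65.7 and 72.1 CPM with eNAMPT, 77.9, 76.7, 58.0, 69.6 and 69.8 CPM with PDGF-BB, and 60.6, 57.8, 58.1, 59.0 and 55.6 CPM in control. The combined libraries lay above all control libraries, which were tightly grouped, and both single treatments sat between with overlap on each side. As for TNFAIP3, replicate 1 was the highest library in each of the 4 groups. TNIP1 rose by 0.54 on the log2 scale with both factors against control (SE 0.10, adjusted p 0.000823) and by 0.31 for the average PDGF-BB effect (SE 0.07, adjusted p 0.00604). Its average eNAMPT effect was 0.23 with an interval of 0.08 to 0.38, which did not pass over all genes (adjusted p 0.745). eNAMPT and PDGF-BB differed by -0.08 (interval -0.29 to 0.13), so the call for PDGF-BB and not for eNAMPT is not a shown difference between them. Both calls were lost under spike-in scaling (0.41, adjusted p 0.747, and 0.26, 0.719). With both factors against eNAMPT the value was 0.35 (SE 0.10, adjusted p 0.0758). It passed without combined replicate 3 (0.42, adjusted p 0.0251) and with the replicate number as a block (0.35, adjusted p 0.012).

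TNIP2 encodes ABIN-2, which binds A20 and the kinase TPL2 (ENSG00000168884, chr4:2741648-2756376, minus strand). It ranged over 27.6 to 49.6 CPM with both factors, 34 to 41.5 CPM with eNAMPT, 33.4 to 42.8 CPM with PDGF-BB and 29 to 41 CPM in control. Every pair of groups overlapped and no comparison called it. The average effects were 0.04 for eNAMPT (log2, interval -0.16 to 0.24) and 0.12 for PDGF-BB (interval -0.08 to 0.32).

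Counted together, 2 of the 7 genes were called higher with eNAMPT against control, NFKBIA and TNFAIP3, beside a background of 0.0743% of all tested genes (9 of 12111). On top of PDGF-BB it was 2 of 7, NFKBIA and NFKBIZ, beside 0.0578% (7 of 12111), and for the average eNAMPT effect 3 of 7, NFKBIA, NFKBIZ and TNFAIP3, beside 0.157% (19 of 12111). PDGF-BB against control called 1 of 7, TNFAIP3, beside 1.05% called higher (127 of 12111), and the average PDGF-BB effect 3 of 7, TNFAIP3, NFKBIE and TNIP1, beside 2.96% (358 of 12111). The combined treatment against control called 5 of 7 higher, all but NFKBIB and TNIP2, beside 1.63% (198 of 12111). The libraries of those 5 did not overlap between the combined and control groups. These genes were called in this same comparison, and the share of all tested genes without overlap was not computed. The separation therefore adds no support to the calls.

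eNAMPT was called above PDGF-BB for 2 of 7, NFKBIA and NFKBIZ, beside 0.198% called higher (24 of 12111). PDGF-BB on top of eNAMPT called 0 of 7 by edgeR, beside 1.18% called higher (143 of 12111). An unadjusted p under 0.05 was reached by 3 of 7, NFKBIE, TNFAIP3 and TNIP1, beside 1316 of 12111. DESeq2 called 1 of 7, TNIP1 (adjusted p 0.0497), beside 229 genes in either direction. In a fit of only those groups TNFAIP3 passed (adjusted p 0.0418), and the share of all genes called in that fit is not given here. With the replicate number as a block 3 of 7 passed, NFKBIE (adjusted p 0.0274), TNFAIP3 (0.00971) and TNIP1 (0.012). Beside them 359 of 12111 genes were called higher, and 511 in either direction. The labels state no pairing by number. Still, 13 of 20 libraries correlated best with one of their own number, and the main fit leaves this shared variation out. The interaction called 0 of 7 and 0 of 12111 genes (0%) by edgeR. DESeq2, run without that filter on low counts, called 0 of 7 and 0 genes for it. At an unadjusted p under 0.05 by edgeR there was 1 of 7, TNFAIP3, and 406 of 12111. The median log2 fold change of the 7 genes was 0.21 for eNAMPT against control, 0.33 for eNAMPT on top of PDGF-BB, 0.17 for PDGF-BB against control and 0.70 for the combination against control, beside medians of all tested genes between -0.01 and 0. Comparisons against control share the same 5 control libraries, and the average effects reuse the libraries of the single comparisons.

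**Figure D3:**
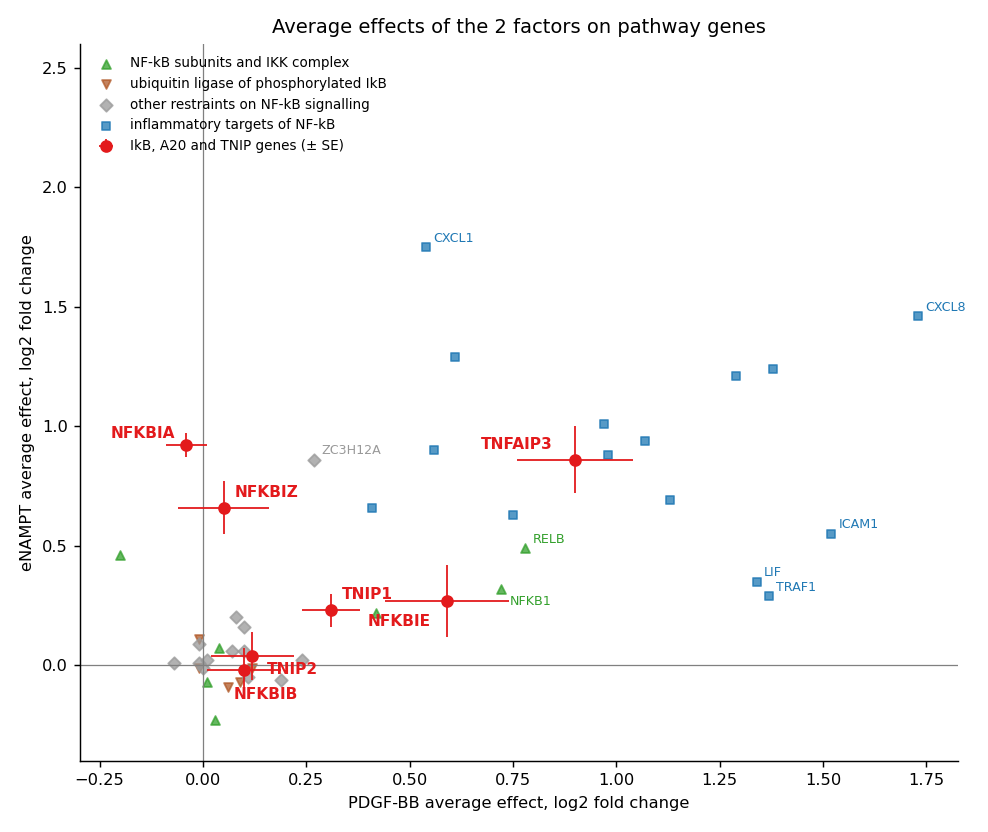
Average log2 effect of eNAMPT (y axis) against the average log2 effect of PDGF-BB (x axis) for the 7 inhibitor genes (red circles, with bars of 1 SE) and the tested genes of the 4 pathway lists described next (triangles, diamonds and squares). NFKBIA (0.92 and -0.04) and NFKBIZ (0.66 and 0.05) lie along the eNAMPT axis, TNFAIP3 (0.86 and 0.90) lies near the diagonal, and NFKBIB and TNIP2 lie near the origin.

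The direct difference of eNAMPT and PDGF-BB separates the genes into those called in it and those not called. It was positive and called for NFKBIA and NFKBIZ. The NFKBIZ call ended in 8 of 20 fits without 1 library and under spike-in scaling (edgeR adjusted p 0.709). The direct difference was not called for TNFAIP3, NFKBIE, TNIP1, NFKBIB and TNIP2. Their intervals ran from -0.76 at the lowest, for NFKBIE, to 0.32 at the highest, for TNFAIP3. The order of the group means followed: for NFKBIA and NFKBIZ the 2 groups with eNAMPT stood above the 2 without, and neighbours within those pairs were not called different. For TNFAIP3, NFKBIE and TNIP1 the order was both factors, PDGF-BB, eNAMPT and control, where the 2 single treatments were not called different and, for NFKBIE and TNIP1, neither was called different from control.

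**Figure D4:**
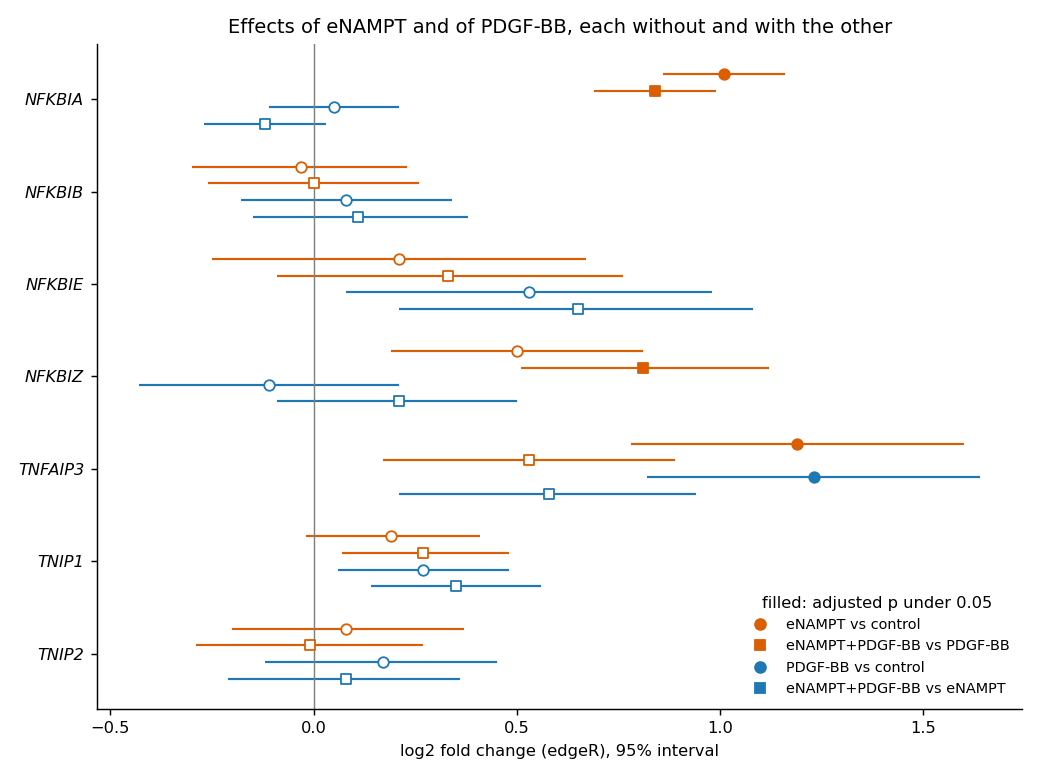
Log2 fold changes with 95% intervals for the 7 inhibitor genes for eNAMPT (orange) and PDGF-BB (blue), each added alone (circles) or on top of the other factor (squares), with filled markers for an adjusted p under 0.05. NFKBIA passes in both comparisons that add eNAMPT, at 0.84 to 1.01, and the intervals of NFKBIB and TNIP2 include 0 in each comparison shown.

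Among the 7 tested of 8 genes for NF-kB subunits and the IKK complex, the subunit genes NFKB1 and RELB were called higher in cells with both factors than in control and for both average effects. NFKB1, the source of the p105 precursor, itself an IkB-like protein, averaged 114 ± 12.2 CPM with both factors, 68.7 ± 5.34 with eNAMPT, 90.3 ± 8.19 with PDGF-BB and 55.4 ± 7.70 in control (SD, n = 5 each), and RELB, the transactivating subunit of the alternative pathway, 54.4 ± 9.83, 32.0 ± 4.26, 39.1 ± 8.01 and 22.4 ± 3.38 CPM in the same groups. The average PDGF-BB effect was 0.72 on NFKB1 (SE 0.07, adjusted p 4.19e-10) and 0.78 on RELB (SE 0.10, adjusted p 7.5e-07). The average eNAMPT effect was 0.32 on NFKB1 (adjusted p 0.0276) and 0.49 on RELB (adjusted p 0.0211), and these 2 calls ended in 10 and 8 of 20 fits without 1 library, where the adjusted p reached 0.0887 and 0.0818, and under spike-in scaling (0.26 and 0.41, adjusted p 1 for each). Of the rest, NFKB2 had an average PDGF-BB effect of 0.42 (adjusted p 0.0583) and REL an average eNAMPT effect of 0.46 (adjusted p 1). The list's median was 0.22 for eNAMPT and 0.04 for PDGF-BB, beside 0 and -0.01 over all genes.

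The genes of the ubiquitin ligase that recognises phosphorylated IkB (BTRC, FBXW11, SKP1, CUL1 and RBX1) gave log2 fold changes of -0.21 to 0.17 over all 9 comparisons. None of these 45 values passed by edgeR (lowest adjusted p 0.323), and 1 had an unadjusted p under 0.05. Of 16 other genes known to restrain NF-kB signalling, 13 were tested, and 1 passed in any comparison: ZC3H12A, the endoribonuclease regnase-1 that degrades inflammatory mRNAs. It averaged 9.79 ± 2.75 CPM with both factors, 10.6 ± 2.51 with eNAMPT, 7.00 ± 2.32 with PDGF-BB and 4.46 ± 1.46 in control (SD, n = 5 each), and was called in the combination against control (log2 1.13, SE 0.29, adjusted p 0.0257). That call ended in 5 of 20 fits without 1 library, those without combined replicate 2 or 5 or control replicate 3, 4 or 5, with an adjusted p of up to 0.12, under spike-in scaling (0.98, adjusted p 0.421) and in the fit of only the groups compared (1.12, adjusted p 0.0527). For eNAMPT against control ZC3H12A had a log2 fold change of 1.23 and did not pass by edgeR (adjusted p 0.117), while DESeq2 called it (1.24, adjusted p 0.0487). Its average eNAMPT effect of 0.86 did not pass by edgeR (adjusted p 0.0698) and passed by DESeq2 (adjusted p 0.0457) and with the replicate number as a block (0.84, adjusted p 0.0353). In the combination against control the deubiquitinase CYLD had 0.26 (adjusted p 0.272), the adaptor TOLLIP 0.26 (0.429) and TRAF3 0.16 (0.721).

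Inflammatory targets of NF-kB were measured in the same libraries. Of 16 such genes 15 were tested, and 15 were called higher in the combination against control, beside 1.63% of all tested genes. For the average eNAMPT effect 11 were called higher, beside 0.157%, with a median of 0.90, and for the average PDGF-BB effect 13, beside 2.96%, with a median of 1.07. Earlier results of these data were known when this list was made, so its direction is no independent evidence. eNAMPT against PDGF-BB called the neutrophil chemokine CXCL1 higher (1.21, adjusted p 2.24e-07) and 3 genes lower, the cytokine LIF (-0.99, 0.000466), the signalling adaptor TRAF1 (-1.08, 0.000664) and the adhesion molecule ICAM1 (-0.97, 0.0165). Within the target list, then, both directions of that difference occurred. Of the 7 inhibitors, the 2 called in it were higher with eNAMPT. NFKB1, the source of the IkB-like p105, was called lower with eNAMPT in it (-0.4, adjusted p 0.0334 by edgeR).

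The genes whose pattern over the 4 group means was nearest to an inhibitor were found among 12101 genes by the Euclidean distance of centred log2 CPM. The 5 nearest to NFKBIA were PALD1 (distance 0.14), ZNF573 (0.15), MIR3142HG (0.17), SLFN12L (0.19) and ACTRT3 (0.20). They averaged 2.22 to 4.55 CPM, and none was called for the average eNAMPT effect (adjusted p 0.571 to 1), so their likeness to NFKBIA rests on small counts. The 5 nearest to TNFAIP3 were the chemokine CCL2 (0.22), C15orf48 (0.22), the receptor-signalling kinase IRAK2 (0.24), FOXC2-AS1 (0.27) and the adhesion molecule VCAM1 (0.28). CCL2 averaged 365 CPM and VCAM1 39.0 CPM, and both were called for each average effect, at 0.88 and 0.98 for CCL2 and 1.01 and 0.97 for VCAM1 (eNAMPT and PDGF-BB in each pair). C15orf48, IRAK2 and FOXC2-AS1 averaged 2.89 to 7.18 CPM and were called for the average PDGF-BB effect (adjusted p 0.0148 to 0.0398) and not for that of eNAMPT (0.319 to 1).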

How the data were processed

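Total RNA of 20 libraries (5 in each of 4 groups) was sequenced. The submitters' processing notes name the GRCh38 build, the aligner STAR 2.6.1a, the counter featureCounts 1.6.4, DESeq2 1.18.1 and FastQC 0.11.7. The authors deposited raw read counts per gene without normalization. A second deposited count table held slightly more counts, and for the 7 inhibitor genes the first table had 98.7 to 100% of them. What separates the tables and whether counting used strand are not given in the sources used here. The authors' deposited log2 fold changes and adjusted p-values were not used.

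From the first table, 99 spike-in features were left out, genes were filtered with filterByExpr, and libraries were scaled by TMM in edgeR 4.0.16 (R 4.3.3, limma 3.58.1). One quasi-likelihood model with a mean for each group was fitted to all 20 libraries and gave 9 comparisons (two-sided, Benjamini-Hochberg over 12111 genes, called at an adjusted p under 0.05). An average effect is the mean of the effects with and without the other factor, and the interaction is their difference, both on the log2 scale. The SE is the absolute log2 fold change divided by the square root of F. CPM are counts per 1e6 of the library total multiplied by its TMM factor.

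The inhibitor genes, the pathway lists and the tests were chosen with earlier results of these data known. All 7 inhibitors are named, as are up to 4 genes of each list with the smallest p in the comparison described (the 5 genes of the ubiquitin ligase list are named only to say what it holds) and the 5 genes nearest to NFKBIA and to TNFAIP3 (mean log2 CPM of at least 1, prior count 2). Positions come from GENCODE 29 on GRCh38, and all 7 starts equal those in the count table. Promoters come from RefSeq (GRCh38.p14). Alternatives were DESeq2 1.42.0, RLE scaling, no filter, a replicate block, fits of only the groups compared, the second count table, spike-in scaling and leaving out each library. The fit was tested on simulated data with changes placed in eNAMPT against control. It recovered 42% of 50 genes changed by 0.5 on the log2 scale, 70% of 50 changed by 1 and 90% of 50 changed by 2. It also called 5 unchanged genes. The simulation held 50 changed genes at each size, against 9 genes called in the data for that comparison. More changed genes ease the adjustment over all genes, so recovery in the data may be lower. A change of 0.5 that did not pass is therefore not shown to be absent.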

Additional observations from a re-analysis of the deposited data

Results flagged for a closer look

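TNFAIP3 stood at 16.3 CPM in eNAMPT replicate 4, against 24.8 to 28.1 CPM in the other 4 eNAMPT libraries. The gap to the nearest library was 0.72 of the range of the group, above the 95% critical value of 0.71 of Dixon's test for 5 samples. This was 1 of 28 gene and group sets examined, and chance flags about 1 in 20. Without this library the rise of TNFAIP3 with eNAMPT against control was 1.30 on the log2 scale (adjusted p 0.000242, edgeR quasi-likelihood), against 1.19 and 0.00117 with all libraries.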

How the results depend on the processing

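Over 420 values of the 7 inhibitor genes under alternatives that keep all libraries, 399 kept their direction and side of the threshold, 9 lost a call, 5 gained a call and 7 changed sign without a call. RLE scaling and the second count table changed no call of an inhibitor gene. Causes were not tested.

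Scaling by spike-in RNA moved the median of all genes to -0.15 (both factors against PDGF-BB), -0.14 (both against eNAMPT), -0.14 (both against control) and -0.16 (interaction). It accounts for all 9 lost calls, which are given with each gene above. The inhibitors called became 0 for both against PDGF-BB, 2 for both against control, 1 for eNAMPT against PDGF-BB and 1 for the average PDGF-BB effect. For the average eNAMPT effect NFKBIZ lost its call (0.60, adjusted p 0.0934 by edgeR), and NFKBIA and TNFAIP3 kept theirs. The genes called were 2 for both against PDGF-BB, 40 for PDGF-BB against control (40 higher and 0 lower, against 127 and 20), 31 for both against eNAMPT, 50 for both against control, 31 for eNAMPT against PDGF-BB, 12 for the average eNAMPT effect and 129 for the average PDGF-BB effect. NFKBIB became -0.02 for both against eNAMPT, -0.05 for both against control and -0.14 for the interaction, TNIP2 -0.08 for both against eNAMPT and -0.05 for the average eNAMPT effect, and NFKBIE and TNIP1 -0.07 and -0.09 for the interaction.

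For both against eNAMPT the inhibitors called were 1 by DESeq2 (TNIP1), 1 in a fit of only those groups (TNFAIP3, 0.58, adjusted p 0.0418) and 3 with a replicate block (NFKBIE 0.66, adjusted p 0.0274, TNFAIP3 0.60, 0.00971, and TNIP1 0.35, 0.012). Without a filter the genes called were 14 for eNAMPT against control, 12 for both against PDGF-BB and 3 for the interaction, and a fit of only the groups compared called 11 for both against PDGF-BB.

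With a replicate block the genes called were 21 for eNAMPT against control, 15 for both against PDGF-BB, 377 for PDGF-BB against control, 511 for both against eNAMPT, 510 for both against control, 362 for eNAMPT against PDGF-BB, 958 for the average PDGF-BB effect and 7 for the interaction. The libraries share only a number in the labels. Deviations from the group means of 30 same-numbered pairs correlated at 0 to 0.18 (median 0.09, 12 above 0.1). Those of 120 other pairs correlated at -0.11 to 0.11 (median -0.03, 3 above 0.1). Of 20 libraries, 13 correlated best with their own number. Same-numbered libraries thus shared some variation, which the main fit without a block does not take into account.

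Leaving out each library in turn, the inhibitors called ranged from 1 to 2 for both against PDGF-BB, beside 5 to 9 of all tested genes. They ranged from 0 to 1 for both against eNAMPT (beside 143 to 205 genes) and from 4 to 5 for both against control (180 to 250). The range was 2 to 3 for the average PDGF-BB effect (405 to 493) and 1 to 2 for eNAMPT against PDGF-BB. The genes called for eNAMPT against PDGF-BB ranged from 81, without eNAMPT replicate 4, to 134, and for the interaction from 0 to 1. Values without a call that changed sign ranged as follows. NFKBIB had -0.09 to 0.04 for eNAMPT against control, -0.02 to 0.15 for PDGF-BB against control, -0.05 to 0.03 for the average eNAMPT effect and -0.04 to 0.13 for the interaction. TNIP2 had -0.10 to 0.09 for both against PDGF-BB, -0.02 to 0.18 for both against eNAMPT, -0.01 to 0.09 for the average eNAMPT effect and -0.19 to 0.01 for the interaction. NFKBIE had -0.09 to 0.35 for eNAMPT against control and -0.02 to 0.42 for the interaction, TNFAIP3 -0.15 to 0.07 for eNAMPT against PDGF-BB, and NFKBIZ -0.03 to 0.09 for the average PDGF-BB effect. NFKBIE in control rested on 39 to 46 counts per library and TNFAIP3 on 20 to 58, which limits the precision of their folds.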

Other observations

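On the linear scale the level of each inhibitor with both factors can be set beside the control level plus the changes seen with each factor alone. NFKBIA stood at 245 CPM with both factors, against a sum of 271 CPM, a difference of -26.1 ± 10.3 CPM (SE over the libraries, n = 5 in each group). TNFAIP3 stood at 36.2 CPM against a sum of 38.8 CPM, a difference of -2.53 ± 4.31 CPM, while its interaction on the log2 scale was -0.66. NFKBIZ stood at 45.7 CPM against 37.5 CPM (8.14 ± 4.94), TNIP1 at 85.1 CPM against 78.9 CPM (6.19 ± 7.06) and NFKBIE at 23.8 CPM against 20.9 CPM (2.87 ± 4.53). These differences were not tested, and no inhibitor gene passed the interaction test by edgeR or DESeq2, with TNFAIP3 alone at an unadjusted p under 0.05.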
